A study of Mus musculus with 30 samples.

Results

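TM7 and Tenericutes were the smallest of the 9 bacterial phyla of the mouse feces examined here that held enough counts to be tested across groups. Their sequence variants were taken from the authors' filtered count table of 16S rRNA gene reads. A row was a member if its taxonomy named either phylum and if it held at least 1 count in the 30 mice. The rule used taxonomy and a count in any mouse, and no difference between groups, but it was set with earlier results of these data known. It found 26 of the 12980 amplicon sequence variants (ASVs) that had counts, 9 in TM7 and 17 in Tenericutes. ASVs are single sequences counted after read filtering, denoising, merging and chimera removal. The smallest member, a TM7 variant, held 1 count. Just outside the rule were 4 Tenericutes variants that held 4 counts in all in the unfiltered table and none in the filtered one, where the authors had removed singletons.

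The study asked whether salidroside, a phenylethanoid glucoside of Rhodiola, and the related phenols tyrosol and hydroxytyrosol change the metabolic state and the gut bacteria of mice fed much fructose. All mice were female, of strain C57BL/6 per the labels (C57BL/6J in the study's methods), with 6 mice in each of 5 groups. The labels give an age of 6 weeks, which in the methods is the age at purchase, and the feces were taken at the end of the treatment, from older mice. Control mice received a normal diet and saline by gavage. Model mice received a high-fructose diet (HFru) and saline. The other 3 groups received the same HFru with a compound, which was salidroside (50 mg/kg), tyrosol (a dose of 23 mg/kg) or hydroxytyrosol (a dose of 26 mg/kg). Tyrosol is the aglycone of salidroside, and hydroxytyrosol carries 1 more hydroxyl group on the ring. No group received a compound on the normal diet, and a mouse is called here by its group and the replicate number of its label. The labels name no cage and no sequencing batch, so effects of either cannot be told apart from those of the group. The p-values treat the mice as independent and measure the spread between these mice.

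TM7, now often called Saccharibacteria, is a phylum of very small bacteria with reduced genomes. Its cultured members, from the mouth, grow attached to the surface of actinobacterial hosts, and it has long been known from gut and mouth surveys by sequence alone. Tenericutes are bacteria of the class Mollicutes, which lack a cell wall. They include the mycoplasmas, many of which colonise mucosal surfaces, the strictly anaerobic Anaeroplasma of animal guts, and RF39, an order known from gut surveys and placed elsewhere by some newer taxonomies. Both phyla are usual but minor parts of the gut community of laboratory mice. The taxon names are those of the deposited tables, which hold no letters of the sequences.

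TM7 held 683 counts, or 0.0262% of the 2611709 counts in the filtered table, and was the 8th of 28 named phyla. Tenericutes held 267 counts, or 0.0102%, and was the 9th. TM7 was found in 10 of 30 mice and Tenericutes in 12. The filtered table held 41862 to 106609 counts per mouse, so a count of 0 allowed a share of up to 0.00281% to 0.00717%, depending on the mouse (3 counts of the total). Intervals for single mice are 95% Wilson intervals, and both limits cover counting error only, since PCR reads without molecular identifiers are not independent molecules. A share also cannot tell fewer cells of a phylum from fewer gene copies per cell or from more of the other bacteria.

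Most libraries held few of the families that usually make up mouse feces. A list of gut families (S24-7, Ruminococcaceae, Lachnospiraceae, Rikenellaceae, Bacteroidaceae, Christensenellaceae, Desulfovibrionaceae and Helicobacteraceae, the last microaerophilic and the others strict anaerobes) ranged from 0.498% to 47.9% of the counts and was under 10% in 21 of 30 mice. A list of 20 aerobic and environmental genera, led by Acinetobacter, ranged from 3.18% to 90.8%. Its mean was 29.6% for the control group and 76.0% for the model group, against 53.8% with salidroside, 74.8% with tyrosol and 47.2% with hydroxytyrosol. Reads left after chimera removal were 57.7% to 72.5% of the merged reads in control mice and 71.2% to 91.0% in model mice. Results with totals that leave out the aerobic genera are given beside the comparisons of model mice with control and treated mice. The part of the chimera losses in the results on the minor phyla was not tested. Control mouse 6 was the control mouse with no count of either phylum. Its 64.1% aerobic genera lay near the 56.3% of control mouse 1, which held both phyla. The comparisons of shares, presence and variant numbers that rest on the control mice are also given without control mouse 6. Since this mouse was picked by its counts, the p-values without it are descriptions, and no call is drawn from them.

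TM7 was mainly a finding of the control mice. The 6 control mice held 20, 3, 194, 247, 170 and 0 counts (replicates 1 to 6), which are shares of 0.0273%, 0.00416%, 0.231%, 0.590%, 0.230% and 0%. The 6 model mice held 3, 3, 0, 0, 0 and 38 counts. Salidroside mice and tyrosol mice held 0 counts in 6 of 6 each. Hydroxytyrosol mice held 2 and 3 counts in replicates 1 and 3, and 0 in the other mice. Control mice 3, 4 and 5 thus carried the bulk of the phylum, and model mouse 6 was the single HFru mouse above 3 counts. Of all TM7 counts, 92.8% came from control mice. Control mice had a mean share of 0.180% ± 0.228 (SD, n = 6), model mice one of 0.00742% ± 0.0150 (SD, n = 6) and hydroxytyrosol mice one of 0.000831% ± 0.00133 (SD, n = 6). The SD of the control mice exceeded their mean, and the groups overlapped. Control mouse 6 was at 0, and model mouse 6, at 0.0379%, lay above control mice 1 and 2.

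Tenericutes were spread more evenly over the control mice and reached most model mice. The control mice held 14, 48, 67, 33, 61 and 0 counts, which are shares of 0.0191%, 0.0665%, 0.0799%, 0.0788%, 0.0824% and 0%. The model mice held 7, 5, 14, 0, 5 and 5 counts. Salidroside mice held 2 counts in replicate 1 and 6 in replicate 3, and 0 in the other 4. Tyrosol and hydroxytyrosol mice held 0 counts in 6 of 6 each. Before the removal of singletons, hydroxytyrosol mouse 3 held 1 Tenericutes count. Apart from control mouse 6, the lowest control share lay above the highest model share of 0.0138%, in model mouse 3. Control mice had a mean share of 0.0545% ± 0.0357 (SD, n = 6), model mice one of 0.00616% ± 0.00455 (SD, n = 6) and salidroside mice one of 0.00154% ± 0.00267 (SD, n = 6). Control mice gave 83.5% of the counts of the phylum and model mice 13.5%.

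**Figure D1:**
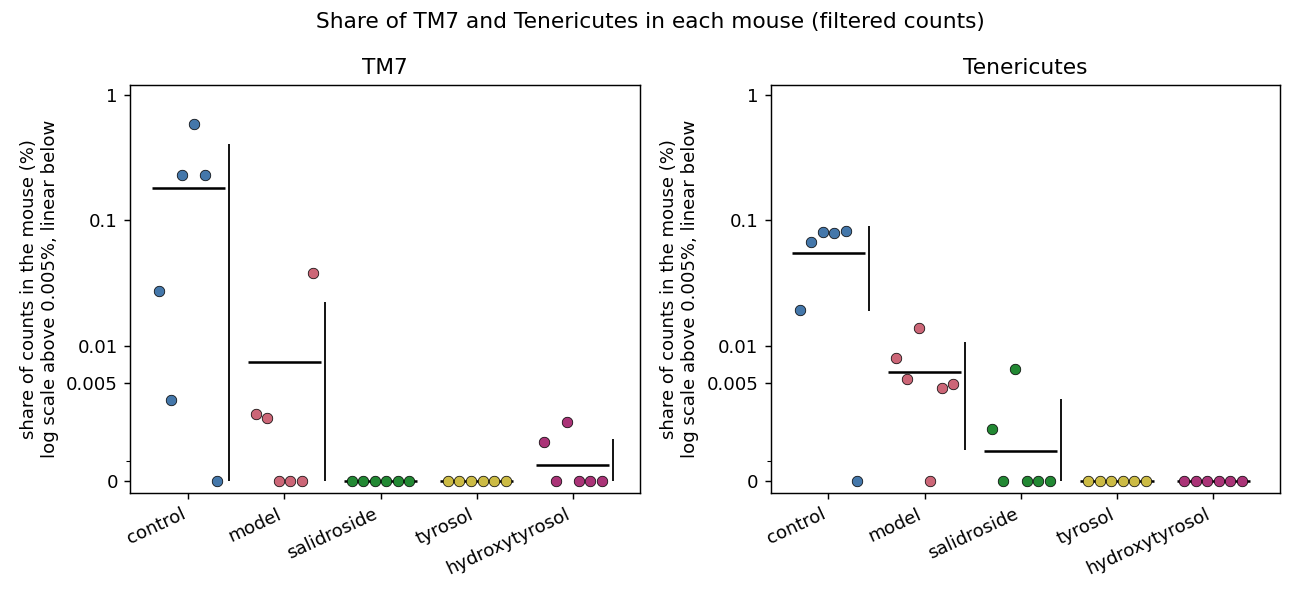
Share of TM7 and of Tenericutes in each of the 30 mice, in percent of the filtered counts, on an axis that is linear below 0.005% and logarithmic above. Points are mice, horizontal lines group means, and the vertical line beside each group is the mean ± SD with its lower end stopped at 0. The highest shares of both phyla are in control mice, while control mouse 6 is at 0, model mouse 6 lies above control mice 1 and 2 in TM7, and tyrosol mice hold none of either.

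Across the 5 groups, the shares of both phyla differed (permutation Kruskal-Wallis test, 100000 resamples). H was 15.6 for TM7 (permutation p = 0.00138, adjusted p = 0.00414) and 18.5 for Tenericutes (permutation p = 9.0e-05, adjusted p = 0.00081). The adjustment covered the 9 phyla that reached 10 counts in 3 or more mice, of which 33.3% passed, the other one being Verrucomicrobia. Of the mice with 10 or more counts, 4 of 5 for TM7 and 5 of 6 for Tenericutes were control mice, so control mice carried both phyla past this filter, which stands behind every adjusted p over 9 phyla. With no filter and adjustment over all 28 phyla, both also passed (permutation test, adjusted p = 0.0129 for TM7 and 0.00252 for Tenericutes). Both phyla also passed without any single mouse, and without control mouse 6 H was 19.3 for TM7 (permutation test, adjusted p = 0.00036) and 22.4 for Tenericutes. The order of the means was control, model, hydroxytyrosol, and then salidroside and tyrosol at 0 for TM7. For Tenericutes it was control, model, salidroside, and then tyrosol and hydroxytyrosol at 0. No neighbours in either order differed at an adjusted p under 0.05 in the pairwise tests that follow, which were two-sided exact permutation tests over all 924 assignments of 12 mice, with a smallest possible p of 0.00216.

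Model against control mice asked what HFru alone went with. The mean TM7 share was 24.3-fold lower in model mice, a difference of -0.173 percentage points (95% interval -0.408 to 0.00321), and did not pass the test (exact permutation p = 0.0758, adjusted p = 0.170). The mean Tenericutes share was 8.84-fold lower, a difference of -0.0483 percentage points (95% interval -0.0761 to -0.0111). Its exact permutation p was 0.0195 and its adjusted p 0.0584. At an adjusted p under 0.05, 11.1% of the 9 phyla passed in this comparison, and neither minor phylum did. At an unadjusted p under 0.05 it was 33.3%, Tenericutes among them. The folds moved with the setting. With the aerobic genera left out of the totals, mean TM7 was 0.212% in control and 0.0177% in model mice, 11.96-fold lower, and mean Tenericutes 0.0684% and 0.0321%, 2.13-fold lower. Without model mouse 6 the other 5 model mice averaged 0.00133% TM7, under the share that 3 counts per mouse give, so no fold is given for them. A control mouse held the higher share in 28 of 36 pairs for TM7 and in 30 of 36 for Tenericutes.

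The test of Tenericutes changed with control mouse 6 and the size of the difference with the aerobic genera. Control mouse 6 was picked because it held no count of either phylum, so no call is drawn from the p-values without it. Without control mouse 6 the difference in Tenericutes was -0.0592 percentage points (exact permutation p = 0.00216, the smallest possible, adjusted p = 0.00974) and that in TM7 -0.209 (exact permutation p = 0.0173, adjusted p = 0.0519). With no filter, adjusted over the 22 phyla with counts in these mice, the adjusted p was 0.0238 for Tenericutes and 0.127 for TM7 without this mouse, and 0.143 and 0.417 with every mouse (exact permutation test). Without control mouse 4, the mouse with the most TM7, the TM7 difference was -0.0911 percentage points and the fold 13.3. When the 20 aerobic and environmental genera were left out of each mouse's total, the difference in Tenericutes was -0.0363 percentage points (exact permutation p = 0.158) and that in TM7 was -0.194 (exact permutation p = 0.0931). Over all 9 alternatives with every mouse kept, the adjusted p (exact permutation) ranged from 0.0584 to 0.281 for Tenericutes and from 0.105 to 0.597 for TM7.

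Presence was compared in the table that the authors rarefied to 39768 counts per mouse, where TM7 kept 467 counts and Tenericutes 144, in the same 10 and 12 mice. TM7 was present in 5 of 6 controls, 3 of 6 model mice and 2 of 6 hydroxytyrosol mice, and in 0 of 6 of each remaining group. Tenericutes were present in 5 of 6 controls, 5 of 6 model mice and 2 of 6 salidroside mice, and in 0 of 6 of each remaining group. At this depth model and control mice thus had Tenericutes in equal numbers of mice, and the test of TM7 presence gave an exact Fisher p of 0.545 (0.182 without control mouse 6). Without control mouse 6 the Tenericutes presence was 5 of 5 against 5 of 6, with an exact Fisher p of 1. Of the 9 phyla, 11.1% passed this test at an adjusted p under 0.05. In model mice the even-depth counts were 1, 1 and 19 for TM7 and 1 to 4 per positive mouse for Tenericutes. A single read stood behind 2 of the 3 TM7 and 1 of the 5 Tenericutes detections there. Presence depended on the depth. In counts drawn down to 10000 per mouse, model mice had 3 fewer mice with Tenericutes than control mice, a difference of -3 (exact Fisher p = 0.242).

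Control mice also held more variants of both phyla on average. At even depth a control mouse held 3.0 ± 2.37 TM7 variants (SD, n = 6) and a model mouse 0.5 ± 0.548 (SD, n = 6), a difference of -2.5 (exact permutation p = 0.0563, adjusted p = 0.127). For Tenericutes they were 3.67 ± 2.25 and 1.0 ± 0.632 (SD, n = 6 each), a difference of -2.67 (exact permutation p = 0.0325, adjusted p = 0.0974). Of the 9 phyla, 11.1% passed at an adjusted p under 0.05 in this comparison. Without control mouse 6 the differences were -3.1 variants for TM7 and -3.4 for Tenericutes. The adjusted p was then 0.0195 and 0.00974 over the 9 phyla (exact permutation test). With no filter, over the 22 phyla with counts in these mice, it was 0.0476 and 0.0238, and with every mouse 0.310 and 0.238 (exact permutation test). Control mouse 6 was picked because it held neither phylum, so no call is drawn without it.

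**Figure D2:**
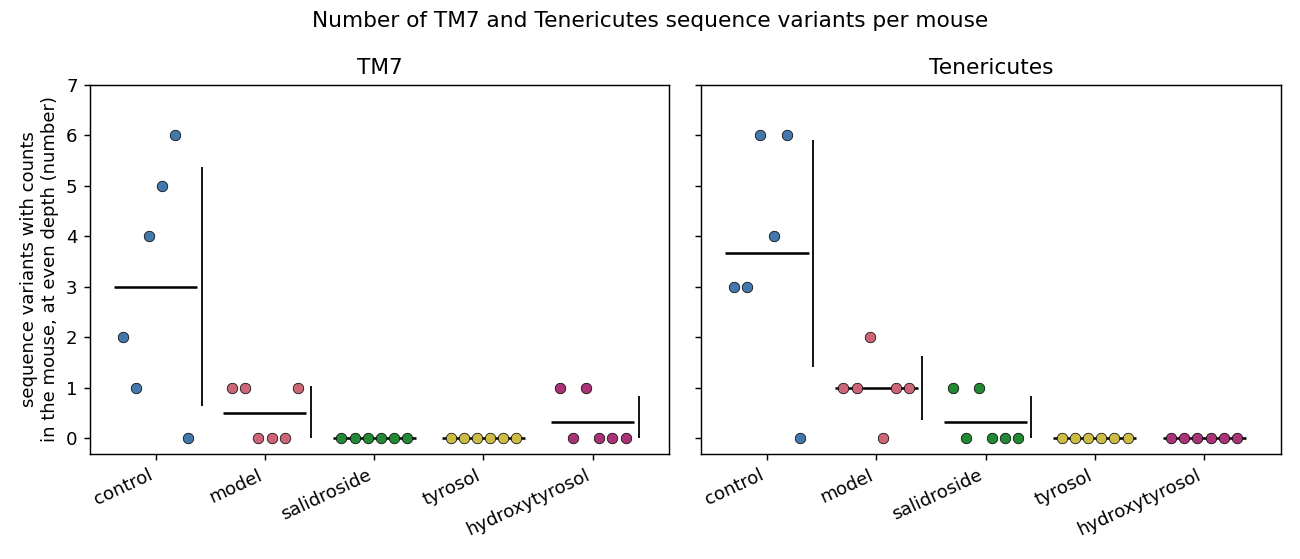
Number of TM7 and Tenericutes sequence variants with at least 1 count in each mouse, in the table rarefied to 39768 counts per mouse. Points are mice, horizontal lines group means, and the vertical line beside each group is the mean ± SD with its lower end stopped at 0. Up to 6 variants of each phylum are seen in a control mouse, against at most 2 in any HFru mouse.

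Within TM7, nearly all counts belonged to 1 family. Unidentified F16, a family of the order CW040 in the class TM7-3, held 680 of the 683 counts in 8 variants and 9 mice. The remaining 3 counts were a variant named no further than the class TM7-3, in model mouse 2. The family F16 therefore gave the phylum's pattern, with 634 counts in control mice, 41 in model mice and 5 in hydroxytyrosol mice. The 4 largest variants held 93.3% of the TM7 counts, and each of them occurred in control mice 3 and 4.

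The 4 main F16 variants showed how the same sequences recurred in different mice. ASV_61107 held 60 counts in control mouse 3, 103 in control mouse 4, 38 in model mouse 6 and 2 in hydroxytyrosol mouse 1. ASV_76905 held 30, 46 and 84 counts in control mice 3, 4 and 5 and 3 in model mouse 1. ASV_27498 held 73, 60 and 13 counts in the same control mice and 3 in hydroxytyrosol mouse 3. ASV_88049 held 31, 37 and 54 counts there and 0 in all HFru mice. Each HFru mouse with F16 thus held a single variant, and that variant was one of those abundant in control mice. Control mice 1 and 2 held none of these 4, and their F16 counts came from smaller variants.

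Model mouse 6 was the exception among the HFru mice. Its 38 counts of ASV_61107 were 0.0379% of its counts (95% Wilson interval 0.0276 to 0.0519), against 0 or 3 counts in the other model mice. The same library held 0.166% Acinetobacter, where the model group's median was 59.0%, and 33.3% of the listed gut families, where the median was 3.50%. Without this mouse the difference in TM7 share between tyrosol and model mice was -0.00133 percentage points in place of -0.00742, and the same values held for salidroside against model mice. For hydroxytyrosol against model mice it was -0.000502 in place of -0.00659.

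Tenericutes were more varied than TM7. Unidentified RF39 held 180 counts in 12 variants and 11 mice, with 140 counts in control mice, 32 in model mice and 8 in salidroside mice. Anaeroplasma, a wall-less strict anaerobe, held 58 counts in 2 variants, with 34 in control mouse 2, 20 in control mouse 3 and 4 in model mouse 3. An unidentified genus of Mycoplasmataceae held 15 counts in control mice 1, 4 and 5. Mycoplasma held 14 counts in 2 variants, all in control mouse 2. RF39 thus made up 67.4% of the phylum, and both taxa of the Mycoplasmataceae family were seen in control mice alone.

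A single RF39 variant accounted for nearly all Tenericutes of the HFru mice. ASV_6298 held 6 counts in control mouse 1, then 7, 5, 10, 5 and 5 counts in model mice 1, 2, 3, 5 and 6, and 2 and 6 counts in salidroside mice 1 and 3. It was the most widespread of the 26 members, in 8 mice. The sole other Tenericutes variant of an HFru mouse was an Anaeroplasma variant with 4 counts in model mouse 3. Control mice held 16 of the 17 Tenericutes variants, and 15 of these, or 93.8%, were seen in no other group. For TM7 it was 5 of the 8 variants of control mice, or 62.5%. Over all variants of the table, 74.8% of the 5154 seen in control mice were seen in no other group, a share that lies between those of the 2 phyla. The largest, ASV_46903 of RF39, held 17 counts in control mouse 3 and 43 in control mouse 5. ASV_73124 of Anaeroplasma held the 54 control counts of its genus. Control and model mice had 1 Tenericutes variant in common, which was 1 of the 16 in control mice (6.25%) and 1 of the 2 in model mice. They had 2 TM7 variants in common, 25% of those in control mice and 66.7% of the 3 in model mice. Over all variants the 985 in common were 19.1% of those in control mice and 28.3% of those in model mice.

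**Figure D3:**
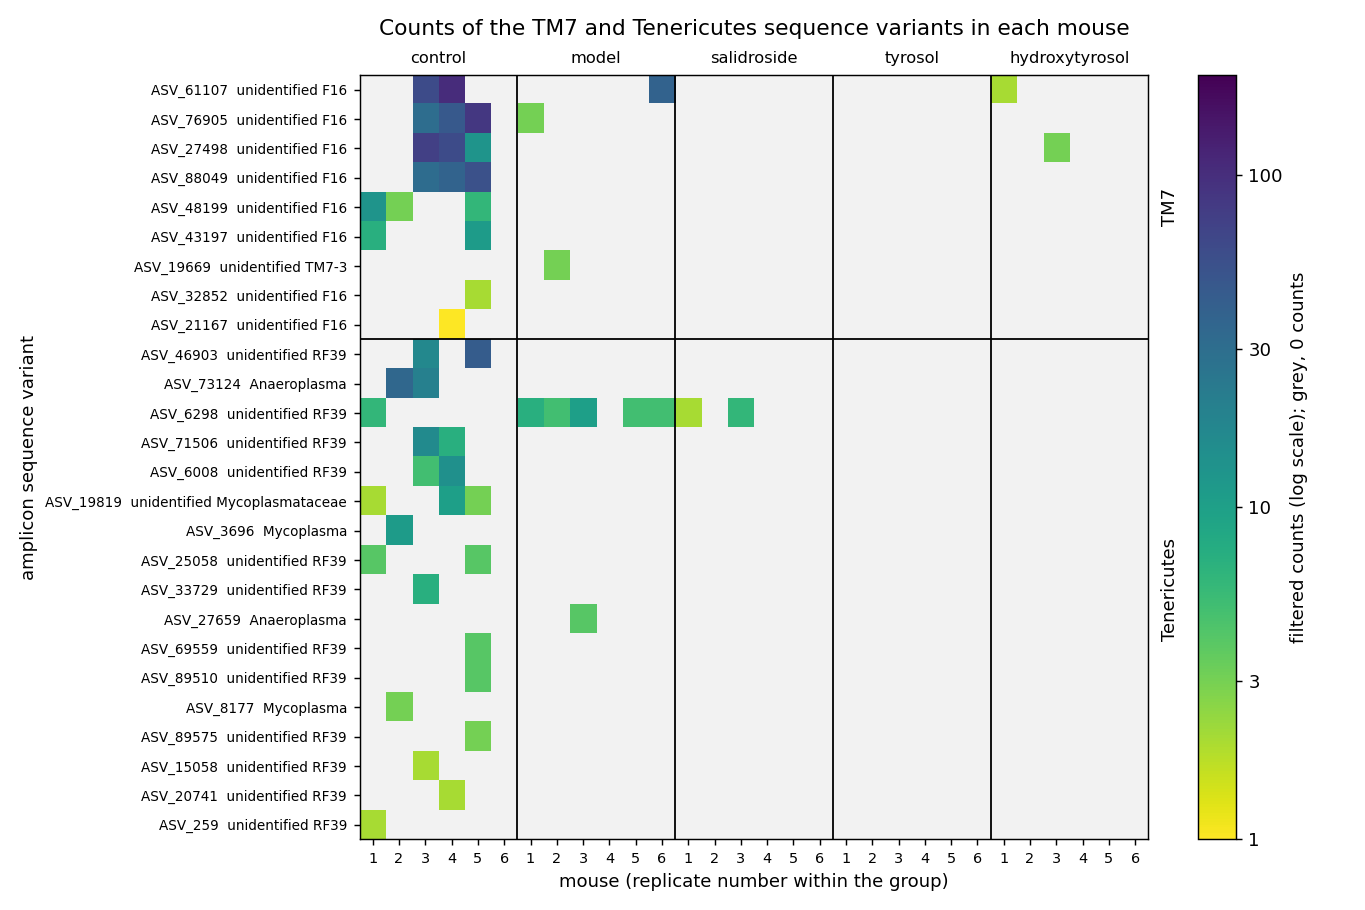
Filtered counts of each of the 26 TM7 and Tenericutes variants (rows, ordered by total within the phylum) in each of the 30 mice (columns, by group and replicate number), with colour on a log scale and grey for 0 counts. The 4 main TM7 variants fill control mice 3 and 4, while ASV_6298 of RF39 runs across 5 model mice.

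The other named Tenericutes variants were ASV_71506 with 23 counts and ASV_6008 with 19, both RF39 of control mice 3 and 4, ASV_19819 of the Mycoplasmataceae with 15, ASV_3696 of Mycoplasma with 11 and ASV_25058 of RF39 with 8 counts in control mice 1 and 5. Of the Tenericutes variants, 10 of 17 were seen in 1 mouse, and of the TM7 variants 3 of 9. Over all 12980 variants of the table this share was 71.1%. The variants seen in 1 mouse held at most 3 counts each in TM7 and at most 11 in Tenericutes.

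Salidroside, tyrosol and hydroxytyrosol were each compared with the model mice to ask what the compound added to HFru. For TM7 the differences from model mice were -0.00742 percentage points with salidroside and with tyrosol (95% interval -0.0205 to 0, exact permutation p = 0.182 in both) and -0.00659 with hydroxytyrosol (95% interval -0.0196 to 0.00151, exact permutation p = 0.273). For Tenericutes the difference was -0.00463 percentage points with salidroside (95% interval -0.00940 to 0, exact permutation p = 0.0563, adjusted p = 0.506). It was -0.00616 with tyrosol and with hydroxytyrosol (95% interval -0.00962 to -0.00249, exact permutation p = 0.0152 in both, adjusted p = 0.0682 and 0.136). Of the 9 phyla, 0% passed at an adjusted p under 0.05 in any of these 3 comparisons.

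At an unadjusted p under 0.05, 0% of the phyla passed with salidroside, 22.2% with tyrosol and 11.1% with hydroxytyrosol, Tenericutes among them both times. The 5 positive model mice against 0 of 6 gave the same exact Fisher p of 0.0152 for presence at even depth (adjusted p = 0.136 in both comparisons). At 10000 counts per mouse the difference was -2 mice in place of -5 (exact Fisher p = 0.455). Since the tyrosol and hydroxytyrosol mice were all at 0 in the filtered counts, the fold is a bound from 3 counts per mouse. The mean Tenericutes share was at least 2.02-fold lower with tyrosol and at least 1.79-fold lower with hydroxytyrosol. Without model mouse 4, the model mouse without Tenericutes, the difference from model mice was -0.00740 percentage points in both comparisons. All mice left in the model group were then positive against treated mice at 0. The smallest possible p was thus fixed by leaving out this mouse, and no call is drawn. The adjusted p was 0.0195 in each over the 9 phyla (exact permutation test). With no filter, adjusted over the 24 phyla with counts in these mice, it was 0.0519 in each and was not called, and with every mouse it was 0.182 with tyrosol and 0.364 with hydroxytyrosol (exact permutation test). With the aerobic genera left out of the totals, the difference in Tenericutes was -0.0321 percentage points with tyrosol and with hydroxytyrosol (exact permutation p = 0.0152 in both, adjusted p = 0.136 and 0.0682) and -0.0268 with salidroside (exact permutation p = 0.0563). For TM7 it was -0.0177 with salidroside and with tyrosol and -0.0163 with hydroxytyrosol (exact permutation p = 0.182 in each). The 3 comparisons share the model mice and are not independent of each other.

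The compounds were also set against each other, in 3 pairs, at doses that differ in mg/kg and that were set from the salidroside dose by molar conversion, per the study's methods. Salidroside and tyrosol mice were both at 0 for TM7, and tyrosol and hydroxytyrosol mice both at 0 for Tenericutes. Salidroside mice exceeded tyrosol mice by 0.00154 percentage points of Tenericutes (95% interval 0 to 0.00327) and hydroxytyrosol mice exceeded tyrosol mice by 0.000831 of TM7 (95% interval 0 to 0.00197). Salidroside against hydroxytyrosol gave the same values, 0.00154 higher for Tenericutes and a difference of -0.000831 for TM7. The exact permutation p was 0.455 for each difference other than 0, with an adjusted p of 0.682 to 0.947 within its comparison and of 0.754 over all 7 comparisons. Single mice decided their size. Without salidroside mouse 3 the Tenericutes differences of 0.00154 were 0.000536, and without hydroxytyrosol mouse 3 the TM7 difference from tyrosol mice was 0.000395. These comparisons rest on 8 Tenericutes and 5 TM7 counts, and a difference smaller than the intervals could not be seen at this depth.

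The treated groups were also compared with the control mice, a set of comparisons added after the values were seen. Salidroside mice were below control mice by a TM7 difference of -0.180 percentage points (95% interval -0.410 to -0.00416) and a Tenericutes difference of -0.0529 (95% interval -0.0799 to -0.0164), each with an exact permutation p of 0.0152. Tyrosol mice were below them by a TM7 difference of -0.180 (95% interval -0.410 to -0.00416) and a Tenericutes difference of -0.0545 (95% interval -0.0806 to -0.0191), also with an exact permutation p of 0.0152. For hydroxytyrosol mice the differences were -0.180 and -0.0545 (exact permutation p = 0.0173 and 0.0152). Adjusted over all 17 to 20 phyla with counts in the mice compared, none of these differences was called (exact permutation, adjusted p of 0.0644 to 0.0866). Over the 9 phyla of the filter the adjusted p was 0.0341 with salidroside and with tyrosol and 0.0519 with hydroxytyrosol (exact permutation test), where 44.4%, 44.4% and 11.1% of the phyla passed. Since control mice carried both phyla past that filter, no call is drawn from these values.

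As bounds from 3 counts per mouse, the TM7 share was at least 44.6-fold lower with salidroside and at least 59.1-fold lower with tyrosol than in control mice. The Tenericutes share was at least 17.8-fold lower with tyrosol and at least 15.8-fold lower with hydroxytyrosol. The TM7 bounds rest on a control mean of 0.180%, which was 0.0985% without control mouse 4, so they would be lower without it. No fold is given for TM7 with hydroxytyrosol, on 5 counts, or for Tenericutes with salidroside, on 8 counts, since both means lay under the share that 3 counts per mouse give. Without control mouse 6 the exact permutation p was 0.00216, the smallest possible, for both phyla in all 3 comparisons. The adjusted p with no filter was then 0.0184 to 0.0216 (exact permutation test). That mouse was picked because it held neither phylum, so these p-values depend on the choice, and no call is drawn. The treated groups and the model mice also held more aerobic genera than control mice on average, as given above.

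Counts per genus-level taxon were tested with edgeR's quasi-likelihood test, which models the spread of counts, for taxa that reached 10 counts in 4 or more of the 12 mice. Of the 6 member taxa, F16 and RF39 passed this filter, and in the comparisons with control mice alone. The 4 mice that carried them past it were control mice 1, 3, 4 and 5, joined by model mouse 6 for F16 and model mouse 3 for RF39. A taxon admitted by the group where it is high is bound to look lower elsewhere, so the tests of treated against control mice are not given, and the following values are a description. In model against control mice, F16 had a log2 fold change of -3.39 (SE 1.78, edgeR, adjusted p = 0.176) and RF39 one of -2.07 (SE 1.56, edgeR, adjusted p = 0.348), and of 97 taxa 17.5% passed, 10.3% as lower in model mice. Without model mouse 6, F16 reached the filter through control mice alone, and no test is given.

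The phyla were found in the same mice more often than not. Over 30 mice their shares had a Spearman rho of 0.737 (also 0.737 without control mouse 6), over the 24 HFru mice 0.412 and over the 6 control mice 0.714. These values are descriptions, since the mice share groups and both shares come from 1 library with many mice at 0. Among 141 other genus-level taxa found in at least 10 mice, the shares most like TM7 over the 30 mice were those of unidentified Clostridiales (rho 0.714), Ruminococcus (rho 0.626) and unidentified Rikenellaceae (rho 0.603). Those most like Tenericutes were unclassified Lactobacillaceae (rho 0.638), unidentified Coriobacteriaceae (rho 0.524) and Ruminococcus (rho 0.517). Ruminococcus, a genus of anaerobes that ferment fibre, stands in both lists and had a mean share of 0.825% in control mice and 0.0639% in model mice. Actinobacteria, the phylum of the hosts of cultured TM7, did not run with TM7 over the 30 mice (rho -0.350), with a rho of 0.714 over the 6 control mice, -0.577 over the 6 model mice and -0.262 over the 24 HFru mice. Control mice had a mean Actinobacteria share of 1.25% ± 0.606 (SD, n = 6), and tyrosol mice, with 0 counts of TM7, one of 4.52% ± 1.97 (SD, n = 6).

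Both phyla were also set beside the listed gut families. Control mice 3 and 4, with 43.1% and 47.9% of them, held 0.231% and 0.590% TM7. Control mouse 2, with 35.0%, held 0.00416%. Control mouse 5, with 12.4%, held 0.230%, and control mouse 6, with 3.38%, held none. In the control group the order of TM7 thus differed from that of the families in some mice, with a Spearman rho of 0.714 over the 6 mice. In the model group rho was 0.941 (Pearson's r 0.982, n = 6), with model mouse 6 highest in both and 3 mice at 0 TM7. Over the 24 HFru mice rho was 0.263 and Pearson's r 0.836, and over all 30 mice rho was 0.468 (0.465 without control mouse 6). For Tenericutes rho was 0.543 over the control mice, 0.486 over the model mice, -0.255 over the 24 HFru mice and 0.176 over all 30. In the same order, Pearson's r for Tenericutes was 0.759, -0.0271, -0.0248 and 0.738. Among the treated mice these families ranged from 1.08% to 14.7%, and the highest Tenericutes share, 0.00653% in salidroside mouse 3, was in the mouse with the lowest share of them.

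**Figure D4:**
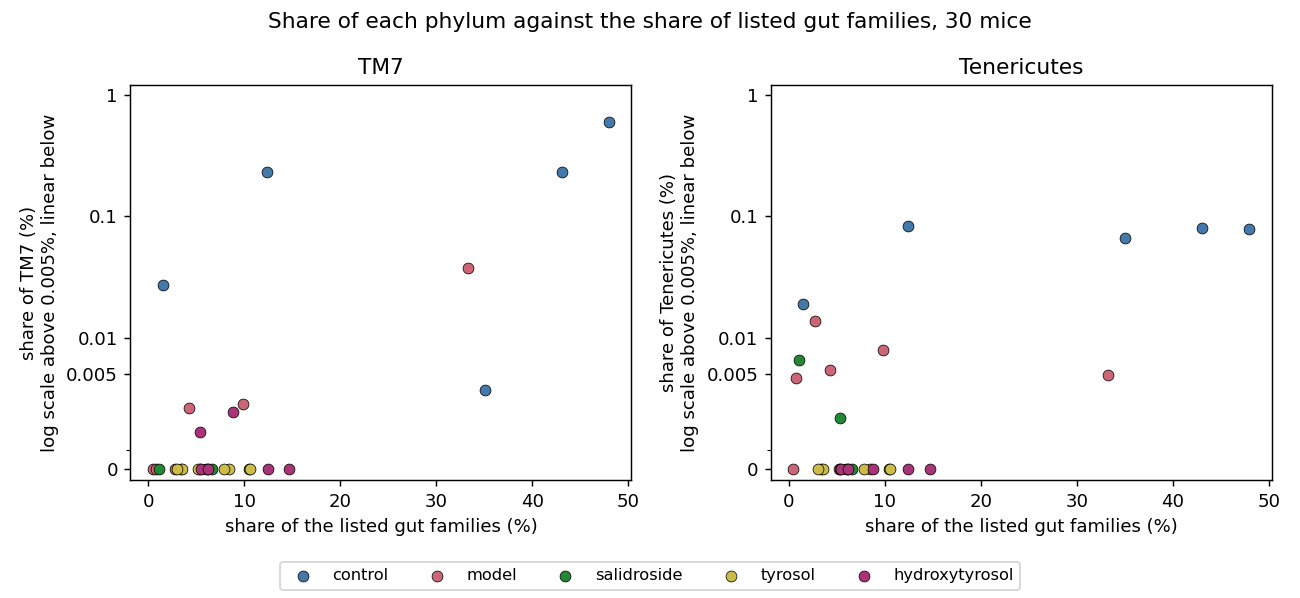
Share of TM7 (left) and Tenericutes (right) against the share of the listed gut families in each of the 30 mice, in percent of the filtered counts, with the vertical axis linear below 0.005% and logarithmic above. Points are mice, coloured by group. The control mouse at 12.4% of these families lies above all HFru mice for both phyla, and model mouse 6, at 33.3%, holds the most TM7 of any HFru mouse.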

How the data were processed

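Total DNA of stool was amplified for the 16S rRNA gene. Per the study's methods, the authors merged reads (FLASH), filtered them (QIIME), removed chimeras and grouped similar sequences into taxonomic units. The deposited read numbers per step instead run from filtering through denoising, merging and chimera removal to singleton removal. Raw counts per sequence, without normalization, were deposited as an unfiltered, a filtered and a rarefied table. The filtered table, whose totals equal the authors' reads left after singleton removal in all 30 mice, gave shares, and the rarefied one presence and variant numbers. Cutadapt is named in the submitters' processing notes. The taxonomy database is not given in the sources used here. The pioglitazone group is not analysed here.

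Groups came from the sample labels. Members and lists were chosen with earlier results of these data known. Named were every genus-level taxon of both phyla, the variants holding 90% of a phylum's counts or its 8 largest, the 3 most similar other taxa per phylum, Actinobacteria, Acinetobacter and the list of aerobic genera. Exact permutation and Fisher tests (scipy 1.17.1) had Benjamini-Hochberg adjustment over 9 phyla within each of 7 comparisons, with a threshold of 0.05. Intervals were found by inverting the permutation test. edgeR 4.0.16 (R 4.3.3) used TMM on counts per genus-level taxon. DESeq2 1.42.0 and limma 3.58.1 were alternatives. Procedures were tested on simulated data. In 75 pairs of mice within groups, 0 held identical counts.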

Additional observations from a re-analysis of the deposited data

Results flagged for a closer look

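The TM7 share of model mouse 6, 0.0379%, lay far from the other 5 model mice, whose shares were at most 0.00342%. Its gap to the next mouse was 0.910 of the range of the group, above Dixon's limit for 6 samples, which chance passes in about 1 of 20 groups. The cause was not tested.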

How the results depend on the processing

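Over 286 combinations of an alternative with a shift of a phylum or of either edgeR taxon, 255 kept their direction and their side of the threshold, 2 reversed and 10 became 0, all of them presence or variant numbers of compounds set against each other. Tenericutes presence in model against control mice, at 0, became -1 with 2 or 3 counts needed and -3 at 10000 counts. The test across 5 groups, which has no direction, kept its side of the threshold in 8 of 8. With 2 counts needed for presence, hydroxytyrosol mice exceeded model mice in TM7 by 1 positive mouse and 0.167 variants per mouse, in place of fewer. On log10 shares with 0.5 counts added, tyrosol mice differed from model mice in Tenericutes by -0.967 (exact permutation, adjusted p = 0.0487), hydroxytyrosol mice from tyrosol mice in TM7 by 0.309 (exact permutation, adjusted p = 0.0195), and hydroxytyrosol mice from control mice by -1.55 in TM7 and -1.68 in Tenericutes. Since 0 counts become 0.5 counts of unequal totals, this setting orders mice at 0 by depth. Without the aerobic genera the Tenericutes difference of hydroxytyrosol and control mice, -0.0684 percentage points, passed over the 9 phyla. No call is drawn from this, since control mice carried the phylum past that filter. Adjusted over all phyla with counts in the mice compared, the differences from control mice in TM7 (-0.180 with salidroside and with tyrosol) and Tenericutes (-0.0529 and -0.0545) were not called (exact permutation, adjusted p of 0.0644 to 0.0758).

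The replicate numbers did not pair the mice, since same-numbered model and control mice correlated by -0.403 to 0.0941 in their deviations and none of the other comparisons had all pairs over 0.1. As a replicate block, the same 4 differences (-0.180 in TM7 and -0.0529 and -0.0545 in Tenericutes) had an exact p of 0.0625 and were not called, and edgeR called 11 taxa in place of 17 in model against control mice. The block changed no other call.

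Taxa called by edgeR in model against control mice numbered 38 with DESeq2, 28 with centred log-ratios and limma, 32 with all 30 mice in 1 model and 125 among single variants, where no member reached the minimum count. F16 had a log2 difference of -4.54 with centred log-ratios, from which no call is drawn, since control mice carried it past the minimum count.

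Model mouse 4 and control mouse 6 were picked because they held neither phylum, so values without them are descriptions, and no call is drawn. With no filter, Tenericutes variants against model mice were -1 with tyrosol and with hydroxytyrosol (exact permutation, adjusted p = 0.333 and 0.159). Without model mouse 4 they were -1.2 in both (exact permutation, adjusted p = 0.0476 and 0.0455). Without control mouse 6 model mice differed by -0.0592 percentage points in Tenericutes share and by -3.1 TM7 and -3.4 Tenericutes variants from control mice, and hydroxytyrosol mice from control mice by -0.216 in TM7 and -0.0653 in Tenericutes (exact permutation, adjusted p of 0.0216 to 0.0476).

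Leaving out 1 mouse at a time moved model against control from -3.1 to -1.9 (TM7 variants), -0.0592 to -0.0427 percentage points (Tenericutes) and -3.4 to -2.2 (Tenericutes variants). Tyrosol and hydroxytyrosol against model mice ranged from -0.00740 to -0.00463 (Tenericutes share), -6 to -4.8 positive mice of 6 and -1.2 to -0.8 variants. Against control mice, TM7 ranged from -0.216 to -0.0985 with salidroside and tyrosol and to -0.0977 with hydroxytyrosol, and Tenericutes from -0.0638 to -0.0473 with salidroside and from -0.0653 to -0.0489 with the others. The taxa called in model against control mice ranged from 10 to 34. Shares under the limit of 3 counts, 0.00281% to 0.00717% depending on the mouse, could not be told from 0 at this depth.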
